A study of Homo sapiens with 4 samples.

Results

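Histone-modifying enzymes were taken from the table of all genes by symbol. The rule accepts the numbered families of lysine methyltransferases (KMT, SETD, SETDB, NSD, EHMT, EZH, SUV39H and DOT1L), lysine acetyltransferases (KAT, EP300 and CREBBP), arginine methyltransferases (PRMT), lysine demethylases (KDM, without KDM5D), zinc-dependent deacetylases (HDAC) and sirtuins (SIRT). It found 83 of the 61498 genes in the files, of which 47 encode writers, the enzymes that place an acetyl or methyl group, and 36 encode erasers, which remove one. The genes were measured as poly(A) RNA in K562, an established human erythroleukaemia line that makes more fetal and embryonic globin when it is given hemin, the iron-containing porphyrin of haemoglobin. The groups were 2 untreated libraries and 2 libraries of cells kept with 50 µM hemin for 108 h, a treatment meant to push the cells toward the erythroid state. Both groups were grown in the same medium, and all libraries come from this 1 line, so they say nothing of other erythroid cells. The labels number the replicates without saying that they were separate cultures, so p-values measure only the spread between these libraries, which may be technical.

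Acetylation of histone tails loosens chromatin and is read by bromodomain proteins, whereas methylation has no charge effect and its meaning depends on the residue. Methylation of lysine 4 of histone H3 (H3K4) marks promoters and enhancers, that of H3K36 marks transcribed gene bodies, and that of H3K9, H3K27 and H4K20 is tied to silencing and compaction. Erythroid precursors shrink and condense their nuclei as they mature, and several of these enzymes are known to be needed in that lineage. The transcript of an enzyme is not its activity, and no histone mark was measured here.

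The libraries held 7455447 to 8241534 expected counts, which are the authors' estimates of reads per gene, and 12.8% to 13.6% of them lay on the mitochondrial genome. Of all genes, 14458 had enough counts to be tested with edgeR's quasi-likelihood test. The 11 erythroid marker genes were all above 1 TPM (the authors' level per transcript length) in these cells, with a summed level of 5775 to 6004 TPM in untreated and 6865 to 7330 TPM in hemin-treated libraries. Markers of other blood and stromal cells were low. Their summed levels were 3.87 to 7.30 TPM for 6 megakaryocyte genes (2 above 1 TPM, with GP9, PF4 and PPBP at 0), 5.94 to 10.5 TPM for 6 monocyte genes (1 above 1 TPM, MPO at 0), 0.54 to 3.82 TPM for 6 lymphoid genes (0 above 1 TPM, CD3E and MS4A1 at 0), and 5.24 to 8.90 TPM for 6 fibroblast genes (1 above 1 TPM, PDGFRA at 0). In each of these lists both hemin-treated sums were below both untreated ones, while the erythroid sum was above. Whether these shifts have a part in the values of the enzymes was not tested. In bulk RNA, fewer cells that make a transcript and less of it in each cell cannot be told apart.

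Promoters of 5 members are shown because these genes passed the test and stood at an end of their enzyme class. They are not all that did. KAT5, with the largest rise among acetyltransferases, also met this rule, but its promoter is not printed. SETD1B, with the largest rise among lysine methyltransferases, had no match in the promoter set. PRMT1 had the largest rise among arginine methyltransferases, KMT5C the largest fall among lysine methyltransferases, KDM3B and KDM6B the largest called rise and fall among lysine demethylases, and HDAC9 the largest called fall among deacetylases. The sequences are from RefSeq (GRCh38.p14) and run from 250 bases before to 50 bases after the annotated start, all on the plus strand. Capitals mark every match to 6 motifs searched on both strands: the GC box GGGCGG, the CCAAT box CCAAT, the ETS site CCGGAAGT, the E-box CACGTG bound by MYC and USF factors, the cyclic AMP response element TGACGTCA and the GATA site AGATAA.
PRMT1, chr19:49677021-49677320: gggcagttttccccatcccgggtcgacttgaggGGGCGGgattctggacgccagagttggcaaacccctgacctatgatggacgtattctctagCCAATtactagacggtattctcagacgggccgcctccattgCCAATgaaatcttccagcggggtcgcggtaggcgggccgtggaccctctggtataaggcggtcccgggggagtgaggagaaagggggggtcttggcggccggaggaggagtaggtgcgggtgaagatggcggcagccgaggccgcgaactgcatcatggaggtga
KMT5C, chr19:55339626-55339925: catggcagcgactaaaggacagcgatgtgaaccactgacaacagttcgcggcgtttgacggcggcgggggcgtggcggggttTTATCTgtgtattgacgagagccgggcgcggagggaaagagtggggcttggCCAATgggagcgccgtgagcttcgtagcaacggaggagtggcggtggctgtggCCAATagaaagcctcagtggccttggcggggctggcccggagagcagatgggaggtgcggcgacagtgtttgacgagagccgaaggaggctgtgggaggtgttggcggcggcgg
KDM3B, chr5:138352435-138352734: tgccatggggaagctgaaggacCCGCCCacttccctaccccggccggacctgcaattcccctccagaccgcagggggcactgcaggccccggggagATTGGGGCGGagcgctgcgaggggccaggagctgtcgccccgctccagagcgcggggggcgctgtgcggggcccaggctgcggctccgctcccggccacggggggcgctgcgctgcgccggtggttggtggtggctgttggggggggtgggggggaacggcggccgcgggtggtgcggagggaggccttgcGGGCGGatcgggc
KDM6B, chr17:7833967-7834266: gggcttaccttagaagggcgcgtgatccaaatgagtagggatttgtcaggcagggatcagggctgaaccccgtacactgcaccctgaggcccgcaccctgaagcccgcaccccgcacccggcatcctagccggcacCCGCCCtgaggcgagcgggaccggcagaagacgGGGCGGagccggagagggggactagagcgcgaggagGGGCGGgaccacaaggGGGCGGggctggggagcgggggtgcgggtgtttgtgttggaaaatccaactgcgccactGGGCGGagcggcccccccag
HDAC9, chr7:18495499-18495798: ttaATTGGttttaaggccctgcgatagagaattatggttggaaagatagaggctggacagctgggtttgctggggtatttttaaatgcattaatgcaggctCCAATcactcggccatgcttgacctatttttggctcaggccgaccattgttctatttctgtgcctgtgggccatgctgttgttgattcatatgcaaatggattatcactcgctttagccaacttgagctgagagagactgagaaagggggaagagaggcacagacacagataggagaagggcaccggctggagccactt
The starts used for HDAC9, PRMT1 and KMT5C lie inside the genes as annotated by GENCODE. HDAC9 spans bases 18086949 to 19002416 of chromosome 7. On chromosome 19, PRMT1 spans bases 49675786 to 49689029 and KMT5C bases 55339853 to 55348121. In KDM3B a CCAAT box on the minus strand shares bases with a GC box, which was the 1 overlapping pair in these 5 windows. KDM6B held 5 GC boxes, KDM3B 3 and PRMT1 1, and KMT5C and HDAC9 held none, with 2 CCAAT boxes each, and KMT5C also held a GATA site on the minus strand. HDAC9 also stood apart in composition, with 47.3% G and C and 5 CpG dinucleotides, against medians of 66.3% and 29 over the members. Of the 83 members, 75 matched the promoter table. The GC box was present in 68% of these promoters and in 44.6% of all 27305 promoters of that length, the CCAAT box in 33.3% and 35.7%, the E-box in 14.7% and 7.44%, and the GATA site in 6.67% and 10.5%. The ETS site was found in 6.67% of member promoters against 4.44% of all, and the cyclic AMP response element in 2.67% against 1.98%. The median promoter of all genes had 58.3% G and C and 14 CpG dinucleotides, below the members. A match describes these letters and is no evidence of binding.

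Of the 83 members, 79 passed the filter on low counts. The other 4 were PRMT8, an arginine methyltransferase of neurons, with 1 count in all libraries together, the demethylase genes KDM4E and KDM4F with 0 counts in every library, and the mitochondrial sirtuin SIRT4 with 2 and 4 untreated and 6 and 5 hemin-treated counts. A count of 0 allows up to 3 counts, which is 0.364 to 0.402 CPM, a count scaled to library size, in these libraries. The highest levels in each class belonged to the deacetylase HDAC2 (157 ± 12.7 TPM untreated, SD, n = 2), the H4K20 monomethyltransferase KMT5A (134 ± 5.11 TPM), the arginine methyltransferase PRMT1 (120 ± 12.3 TPM), the H3K4 demethylase KDM1A (80.5 ± 4.43 TPM), the acetyltransferase KAT8 (48.1 ± 0.134 TPM) and the nucleolar sirtuin SIRT7 (34.0 ± 2.99 TPM). The deacetylases HDAC1 (149 ± 1.91 TPM) and HDAC3 (124 ± 1.48 TPM) followed closely on HDAC2. KDM4D was the lowest tested member, at 0.87 ± 0.156 TPM.

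After hemin, the writers that passed the test had mostly risen, and the erasers that passed it, deacetylases and demethylases, had mostly fallen. Among the 79 tested members 15 rose and 8 fell at an adjusted p below 0.05 (edgeR quasi-likelihood test, Benjamini-Hochberg adjustment over all 14458 genes), where 7.00% of all tested genes rose, 7.14% fell and 14.1% did either. None of the 23 changed by as much as 2-fold, and their log2 fold changes lay between -0.61 and 0.39. Of 46 tested writers, 14 rose and 4 fell (30.4% and 8.70%). Of 33 tested erasers, 1 rose and 4 fell (3.03% and 12.1%). A positive log2 fold change was seen in 36 writers (78.3%), in 15 erasers (45.5%) and in 49.1% of all tested genes. The median log2 fold change was 0.11 for writers and -0.02 for erasers, beside -0.005 over all genes. Both sides were also restricted to enzymes that were assigned a histone substrate here. This gave 14 writers up and 4 down of 38, with a median of 0.16. It gave 1 eraser up and 3 down of 29, with a median of -0.02. The assignment kept HDAC4, HDAC5, HDAC7, HDAC9 and HDAC11 as erasers of acetyl-lysine, and HDAC9 was among the 3 that fell. Counts without these genes were not drawn up. No test of writers against erasers as lists was made.

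The counts moved when 1 library was left out. Without untreated replicate 1 the writers numbered 6 up and 2 down, and without untreated replicate 2 they numbered 3 up and 2 down. Without hemin replicate 1 or 2 there were 11 or 10 writers up and 2 down. The same 4 erasers fell in each of these fits, and the single eraser that rose, KDM3B, was lost in each of them, with 1 or 2 erasers higher at an unadjusted p under 0.05. The number of called genes in the whole table also shrank, to 469 higher and 512 lower without untreated replicate 1. DESeq2, which called 4.55% of the genes it tested higher and 3.70% lower, had 6 writers up and 1 down, and 4 erasers down and 0 up, where edgeR and DESeq2 each had 1 eraser higher at an unadjusted p under 0.05. On the TPM scale limma called 0 of the 79 members with log2(TPM + 1), with 5 writers higher, 5 writers lower, 0 erasers higher and 4 erasers lower at an unadjusted p under 0.05, and it called 14 genes higher and 33 lower of all genes. Under library size alone as the scale, 9 writers rose and 5 fell, beside 729 genes higher and 1358 lower in the whole table. TPM also rest on the effective length that the authors' program estimated for each gene in each library. That length varied over the 4 libraries by a median of 17.2% of the smallest among the tested members, and by over 10% in 16 of the 23 called ones.

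**Figure D1:**
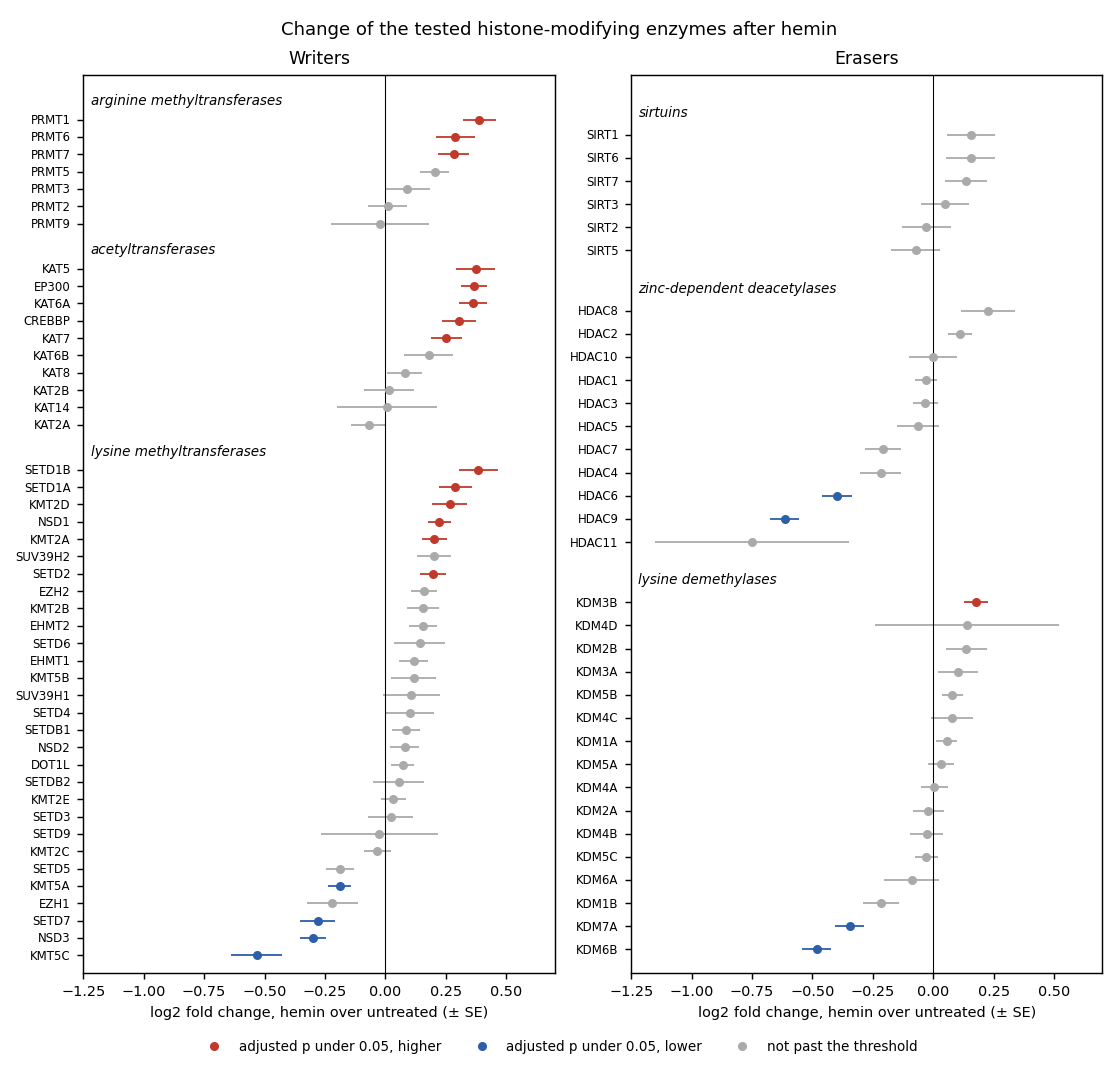
Log2 fold change (hemin over untreated, TMM-scaled counts, edgeR) of the 79 tested members, by enzyme class, with bars of 1 standard error and members past the threshold marked. Acetyltransferases and arginine methyltransferases lie mostly right of 0, with 5 and 3 called higher and 0 called lower. Zinc-dependent deacetylases lie mostly left of it, with 2 called lower. Of all tested genes, 7.00% were called higher and 7.14% lower.

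**Figure D2:**
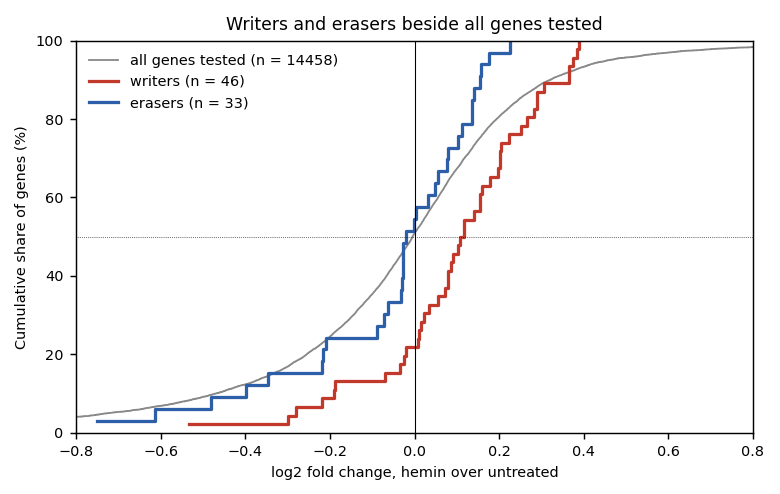
Cumulative share of genes (y axis) at or below a log2 fold change (x axis) for 46 writers, 33 erasers and all 14458 tested genes. The writer curve lies to the right, with a median of 0.11, and the eraser curve crosses near 0, with a median of -0.02.

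Methyltransferases of H3K4 carried 5 of the called writers. The 6 catalytic subunits of the COMPASS complexes (KMT2A to KMT2D, SETD1A and SETD1B) had log2 fold changes between -0.03 and 0.39 with a median of 0.23. Of these 6, 4 rose and 0 fell (66.7% and 0%, beside 7.00% and 7.14% of all tested genes). At an unadjusted p under 0.05, 0 were lower, and DESeq2 called 2 higher. SETD1B, which trimethylates H3K4 at promoters, read 38.1 and 34.1 CPM in untreated and 47.2 and 47.1 CPM in hemin-treated libraries. That is a log2 fold change of 0.39 (SE 0.082, adjusted p = 0.0151). Its paralog SETD1A read 47.4 and 49.7, then 60.3 and 58.4 CPM (log2 fold change 0.29, SE 0.069, adjusted p = 0.0239). KMT2A, the MLL protein that maintains HOX gene expression in blood progenitors, went from 386 and 347 to 421 and 422 CPM (0.20, SE 0.052, adjusted p = 0.0316). KMT2D, which places H3K4 monomethylation at enhancers, went from 375 and 315 to 403 and 427 CPM (0.27, SE 0.072, adjusted p = 0.0383). In all 4 the hemin-treated CPM lay above both untreated ones. In TPM the groups overlapped for KMT2A (66.3 and 79.3, then 76.54 and 89.02 TPM) and SETD1A (12.98 and 16.16, then 15.65 and 20.58 TPM). On the CPM scale, replicate 2 was the lower one in the untreated pairs of KMT2A, KMT2D and SETD1B. Without untreated replicate 2 none of the 4 passed, at adjusted p-values of 0.0894 for SETD1B, 0.0615 for SETD1A, 0.138 for KMT2A and 0.14 for KMT2D. SETD1A was also lost without untreated replicate 1 (0.117) and hemin replicate 1 (0.0665), and KMT2D without hemin replicate 2 (0.0578).

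KMT2B, a COMPASS subunit that acts at promoters, read 127 and 117, then 128 and 143 CPM and did not pass (log2 fold change 0.16, adjusted p = 0.152). KMT2C, the paralog of KMT2D, had overlapping groups (-0.03, adjusted p = 0.742). SETD7, a monomethyltransferase with histone H3K4 and many other proteins as substrates, went the other way. It fell from 55.4 and 58.1 to 45.7 and 47.6 CPM (log2 fold change -0.28, SE 0.071, adjusted p = 0.0297), and this call was lost with any library left out (highest adjusted p 0.137). None of the 5 tested H3K4 demethylases passed the edgeR test or DESeq2, and 1 was lower at an unadjusted p under 0.05. That 1 was KDM1B, a demethylase of oocytes and gene bodies, at 51.6 and 49.8, then 42.6 and 44.6 CPM (-0.22, adjusted p = 0.0784). KDM1A, the LSD1 enzyme that works with GFI1B and CoREST in erythroid cells, read 171 and 168, then 177 and 176 CPM (0.06, adjusted p = 0.442).

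Acetyltransferases were the class with the largest called share, 5 of 10 higher and 0 lower, with a median log2 fold change of 0.22. That is 50% and 0%, beside 7.00% and 7.14% of all tested genes. At an unadjusted p under 0.05, 0 were lower, and DESeq2 called 2 higher. EP300 and CREBBP are the paired coactivators that acetylate H3K27 at enhancers and also acetylate GATA1. EP300 (chromosome 22, bases 41092592 to 41180077 of GRCh38) read 107 and 102 CPM in untreated and 131 and 138 CPM in treated libraries (log2 fold change 0.37, SE 0.054, adjusted p = 0.00333). CREBBP read 42.9 and 42.2, then 52.3 and 52.8 CPM (0.31, SE 0.070, adjusted p = 0.0209). In both genes the treated CPM lay well above the untreated CPM. In TPM, EP300 read 21.35 and 20.96, then 21.43 and 28.71, so hemin replicate 1 was nearly level with the untreated libraries. KAT6A, the MOZ protein of haematopoietic stem cells, went from 64.0 and 64.5 to 83.6 and 81.8 CPM (0.36, SE 0.058, adjusted p = 0.00459). KAT7, the HBO1 enzyme that acetylates H3K14 and licenses replication origins, went from 50.7 and 50.2 to 59.6 and 60.6 CPM (0.25, SE 0.066, adjusted p = 0.0333). KAT5, the TIP60 enzyme of the NuA4 complex, went from 30.6 and 31.9 to 40.2 and 40.8 CPM (0.37, SE 0.080, adjusted p = 0.0155). EP300 and KAT6A passed with each library left out (highest adjusted p 0.0257 and 0.0302), whereas CREBBP, KAT5 and KAT7 did not (0.0894, 0.0877 and 0.124). KAT5 was the 1 called member whose count carried a posterior SD above 1%, from reads that fit more than 1 gene or isoform, and its TPM values overlapped between the groups. The lowest log2 fold change of the class was that of KAT2A, the GCN5 enzyme of the SAGA complex, at 54.9 and 50.7, then 49.5 and 51.2 CPM (-0.07, adjusted p = 0.587).

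Arginine methyltransferases had 3 of 7 tested members higher and 0 lower, with 0 lower at an unadjusted p under 0.05. That is 42.9% and 0%, beside 7.00% and 7.14% of all tested genes. DESeq2 called 1 of them higher. PRMT1, which makes most of the asymmetric dimethylarginine of the cell and methylates histone H4 at arginine 3, lies on chromosome 19 from base 49675786 to 49689029. It read 89.1 and 100 CPM in untreated and 129 and 119 CPM in treated libraries. Its log2 fold change of 0.39 (SE 0.068, adjusted p = 0.00645) held with each library left out (highest adjusted p 0.0444). PRMT7, a monomethylating enzyme, rose from 57.0 and 55.8 to 70.4 and 67.1 CPM (0.28, SE 0.065, adjusted p = 0.0202), and PRMT6, which methylates H3 at arginine 2, from 33.8 and 36.7 to 42.7 and 43.3 CPM (0.29, SE 0.081, adjusted p = 0.0430). Both calls were lost in leave-one-out fits, at highest adjusted p-values of 0.0873 and 0.206. PRMT5, the symmetric dimethylating enzyme, read 92.3 and 89.5, then 110 and 99.9 CPM and missed the threshold (0.20, adjusted p = 0.056). PRMT9 was the lowest in the class (-0.02, adjusted p = 0.959). On the TPM scale the 5 members with an established histone substrate summed to 299 and 302 TPM in untreated and to 387 and 352 TPM in hemin-treated libraries.

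Writers of H3K36 split. SETD2, the main enzyme that trimethylates H3K36, went from 112 and 115 to 125 and 134 CPM (log2 fold change 0.20, SE 0.054, adjusted p = 0.0412), and NSD1, a dimethyltransferase, from 122 and 119 to 141 and 140 CPM (0.22, SE 0.047, adjusted p = 0.0151). NSD3, a paralog of NSD1, went down from 109 and 113 to 91.0 and 89.4 CPM (-0.30, SE 0.053, adjusted p = 0.00708). The opposite signs within 1 family were not tested against each other. NSD3 stayed past the threshold with each library left out (highest adjusted p 0.0473), while SETD2 and NSD1 did not (0.228 and 0.0714). For NSD1 the scale mattered, since its TPM was 22.6 ± 0.410 in untreated and 22.4 ± 1.53 in treated libraries (SD, n = 2 each), and it was the only called member whose direction turned on that scale.

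The largest fall among writers was in KMT5C, which trimethylates H4K20 at pericentric heterochromatin (chromosome 19, bases 55339853 to 55348121). It read 26.9 and 29.5 CPM in untreated and 18.3 and 20.6 CPM in treated libraries, a log2 fold change of -0.53 (SE 0.106, adjusted p = 0.0115). KMT5A, which lays down the H4K20 monomethyl group that KMT5C builds on and is tied to chromatin condensation in erythroblasts, fell from 167 and 174 to 150 and 149 CPM (-0.19, SE 0.047, adjusted p = 0.0269). Both went down in both treated libraries. KMT5C lost its call without untreated replicate 2 (adjusted p = 0.0728) and by DESeq2 (adjusted p = 0.0513), and KMT5A lost it in all 4 (highest 0.13). The third H4K20 enzyme, KMT5B, had overlapping groups at 36.4 and 43.3, then 43.7 and 42.6 CPM (adjusted p = 0.455).

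Writers of the silencing marks H3K9 and H3K27 did not pass. The 6 H3K9 methyltransferases had log2 fold changes between 0.055 and 0.20, all positive, with 0 called by edgeR or DESeq2 and 2 higher at an unadjusted p under 0.05. On the TPM scale 2 of the 6 had the opposite sign, EHMT1, the partner of G9a, at 57.9 ± 1.98 and then 48.5 ± 2.14 TPM, and SETDB2, at 5.3 ± 0.714 and then 4.87 ± 0.346 TPM (SD, n = 2 each). The 2 with an unadjusted p under 0.05 were SUV39H2, an enzyme of pericentric heterochromatin, at 45.6 and 45.7, then 51.2 and 53.7 CPM (adjusted p = 0.0904), and EHMT2, the G9a enzyme of euchromatic H3K9 dimethylation, at 74.2 and 75, then 81.2 and 84.9 CPM (adjusted p = 0.108). EZH2, the main catalytic subunit of Polycomb complex PRC2, read 123 and 114, then 133 and 133 CPM (0.16, adjusted p = 0.0806), and its paralog EZH1 read 37.9 and 31.2, then 29.5 and 30.0 CPM (adjusted p = 0.204). DOT1L, the only H3K79 methyltransferase, was at 144 and 148, then 157 and 150 CPM (0.07, adjusted p = 0.363). SETD5, a SET-domain protein without an agreed histone substrate, was the lowest of the methyltransferases of that kind and missed the threshold at 294 and 260, then 242 and 245 CPM (-0.19, adjusted p = 0.0594).

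**Figure D3:**
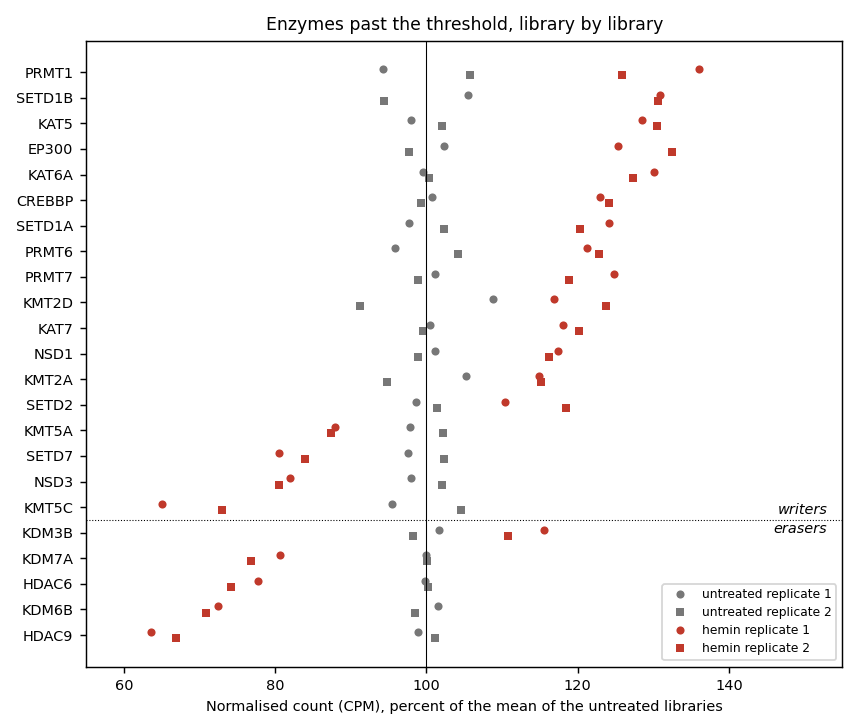
Values of the 23 called members in each of the 4 libraries, as normalised count (CPM) in percent of the gene's untreated mean on the x axis, with writers above and erasers below a dotted line. In each of the 23 genes, which were picked by a test on these counts, both hemin-treated libraries lie on 1 side of both untreated ones. The changes run from the fall in HDAC9 (log2 fold change -0.61) to the rises in SETD1B and PRMT1 (0.39 each).

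The largest called change of all members was in an eraser. HDAC9, a class IIa deacetylase that works as a corepressor of MEF2 factors (chromosome 7), read 91.2 and 93.2 CPM in untreated and 58.7 and 61.6 CPM in hemin-treated libraries. That is a fall of 34.8%, a log2 fold change of -0.61 (SE 0.060, adjusted p = 0.000452), and it held with each library left out (highest adjusted p 0.00613) and by DESeq2 (adjusted p = 2.1e-07). The level per length went from 36.3 ± 0.827 to 23.5 ± 1.1 TPM (SD, n = 2 each). The other 3 class IIa genes also had negative log2 fold changes and hemin-treated CPM below the untreated CPM, but none of the 3 passed. HDAC4 read 32.4 and 33.9, then 28.5 and 28.5 CPM (adjusted p = 0.121), HDAC7 read 59.3 and 54.7, then 48.0 and 50.7 CPM (adjusted p = 0.0934), and HDAC5 read 33.5 and 33.0, then 30.6 and 33.0 CPM (adjusted p = 0.693), a separation smaller than the rounding. On the TPM scale HDAC4 and HDAC5 turned, with differences of 0.035 and 0.032 on log2(TPM + 1), so all 4 class IIa genes were lower in counts only. Such non-overlap on the low side was seen in 29.3% of all tested genes, and on the high side in 28.1%.

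HDAC6, which deacetylates tubulin and other cytoplasmic proteins and has no established histone substrate in cells, fell from 79.8 and 80.1 to 62.2 and 59.2 CPM (log2 fold change -0.40, SE 0.061, adjusted p = 0.00383, highest 0.0253 with a library left out). The 4 class I enzymes, the main nuclear deacetylases, were not called, with 0 at an unadjusted p under 0.05 and 0 by DESeq2. HDAC1 read 173 and 179, then 174 and 171 CPM (-0.03, adjusted p = 0.721). HDAC2 read 168 and 175, then 179 and 191 CPM (0.11, adjusted p = 0.172). HDAC3, the enzyme of the NCoR complex, had a log2 fold change of -0.03 (adjusted p = 0.725), and HDAC8 had the highest value of the class at 0.23 (adjusted p = 0.212). HDAC11 had the lowest, -0.75, but with 10 to 26 counts per library its SE was 0.40 (adjusted p = 0.251), so a change in it was not detectable at this depth. Of the 6 tested sirtuins, the NAD-dependent deacylases, 0 passed by edgeR or DESeq2 and 0 had an unadjusted p under 0.05. Their log2 fold changes ran from -0.07 in SIRT5 (SE 0.101, adjusted p = 0.693) to 0.16 in SIRT1 (SE 0.101, adjusted p = 0.35). On the log2(TPM + 1) scale HDAC8 and SIRT1 had the opposite sign, at -0.12 and -0.095.

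Among 16 tested lysine demethylases, 1 rose and 2 fell. That is 6.25% and 12.5%, beside 7.00% and 7.14% of all tested genes, so these few calls do not set the class apart. KDM6B, the JMJD3 enzyme that removes H3K27 trimethylation (chromosome 17, bases 7834217 to 7854796), read 83.3 and 80.8 CPM in untreated and 59.5 and 58.1 CPM in treated libraries. Its log2 fold change of -0.48 (SE 0.060, adjusted p = 0.00135) was a fall of 28.3%, and the highest adjusted p with a library left out was 0.0133. KDM7A, a demethylase of H3K9 and H3K27, fell from 84.5 and 84.7 to 68.2 and 65.0 CPM (-0.35, SE 0.059, adjusted p = 0.00605, highest 0.0356). KDM6A, the X-linked paralog of KDM6B, had overlapping groups at 25.4 and 21.9, then 21.0 and 23.4 CPM (adjusted p = 0.66). KDM3B, an H3K9 demethylase on chromosome 5 (bases 138352685 to 138437028), went up from 135 and 131 to 154 and 147 CPM (0.18, SE 0.049, adjusted p = 0.0422), but not with any library left out (highest 0.164) or by DESeq2 (adjusted p = 0.118).

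Not all calls were equally firm. NSD3, KAT6A, EP300, PRMT1, KDM7A, KDM6B, HDAC9 and HDAC6 passed in every leave-one-out fit, while SETD7, KMT5A, KAT7, PRMT6 and KDM3B passed in none of them. Without untreated replicate 2, 15 of the 23 calls were lost, and without untreated replicate 1, hemin replicate 1 or hemin replicate 2 it was 11, 7 or 8. KMT2A, SETD1B and KMT5C were lost only without untreated replicate 2, and NSD1 and KAT5 only without either untreated replicate. CREBBP was kept only without hemin replicate 1, PRMT7 and SETD1A only without hemin replicate 2, and SETD2 only without hemin replicate 1. KMT2D was lost without untreated replicate 2 and hemin replicate 2. DESeq2 called 11 of the 23. In CPM, both treated libraries lay on 1 side of both untreated ones in all 23 genes. The genes were picked by a test on these same counts, so that separation adds no support. Over all tested genes, 28.1% were apart on the high side and 29.3% on the low side. In TPM, from the same reads, 18 of the 23 were apart, without KMT2A, SETD1A, NSD1, KAT5 and KAT7. EP300 was apart by very little, with 21.35 TPM in untreated replicate 1 and 21.43 TPM in hemin replicate 1. The sign of the TPM ratio matched in 22, with NSD1 as the exception.

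Set against each other by residue, summed TPM gave writer-to-eraser ratios that differed in size. Each enzyme was counted under a single residue, also where it acts on others, so the KDM4 genes and KDM7A stood under H3K9 alone. The class IIa deacetylases and HDAC11 were counted as acetyl-lysine erasers. Ratios under other assignments were not computed. For H3K4 the ratio was 1.10 and 1.20 in untreated and 1.39 and 1.48 in hemin-treated libraries. The sum of the 7 writers was 259 ± 2.04 TPM in untreated and 295 ± 4.81 TPM in treated libraries, and that of the 5 demethylases was 225 ± 12.2 and 206 ± 5.99 TPM (SD, n = 2). For H3K27 the ratio was 3.48 and 3.25, then 4.35 and 4.26. The erasers counted for it, KDM6A and KDM6B, summed to 25.2 ± 1.04 and then 20.2 ± 0.177 TPM. KDM7A, which acts on H3K9 and H3K27, was not in that sum, at 15.4 ± 0.771 and then 13.0 ± 1.41 TPM. For acetyl-lysine the ratio was 0.315 and 0.310, then 0.338 and 0.358. In these residues the treated ratios lay above the untreated ones. For H3K36, with KDM2A and KDM2B as the only erasers counted, they lay below, at 3.63 and 3.90, then 3.28 and 3.53. For H3K9 they overlapped, at 1.45 and 1.40, then 1.51 and 1.40. Sums of CPM, a scale added after these values were seen, kept the treated ratios above the untreated ones for H3K4 (2.13 and 1.93, then 2.22 and 2.25), H3K27 and acetyl-lysine. They gave overlapping ratios for H3K36 (4.27 and 4.41, then 4.31 and 4.62) and higher ones for H3K9 (0.699 and 0.703, then 0.733 and 0.783), so the directions for H3K36 and H3K9 depended on the scale. The lower sum of H3K4 demethylases was likewise seen in TPM and not in CPM, where it was 625 and 617, then 623 and 636. H4K20 writers, with no eraser among the members, summed to 179 and 192, then 167 and 154 TPM. Over all 83 members the ratio was 1.37 and 1.40 in untreated and 1.56 and 1.5 in treated libraries. In the count scale, the mean log2 CPM of tested writers exceeded that of erasers by 0.255 and 0.266 in untreated and by 0.433 and 0.402 in hemin-treated libraries, a difference of 0.16. These sums were given no test, since the members are not replicates and a few abundant genes weigh most in them.

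**Figure D4:**
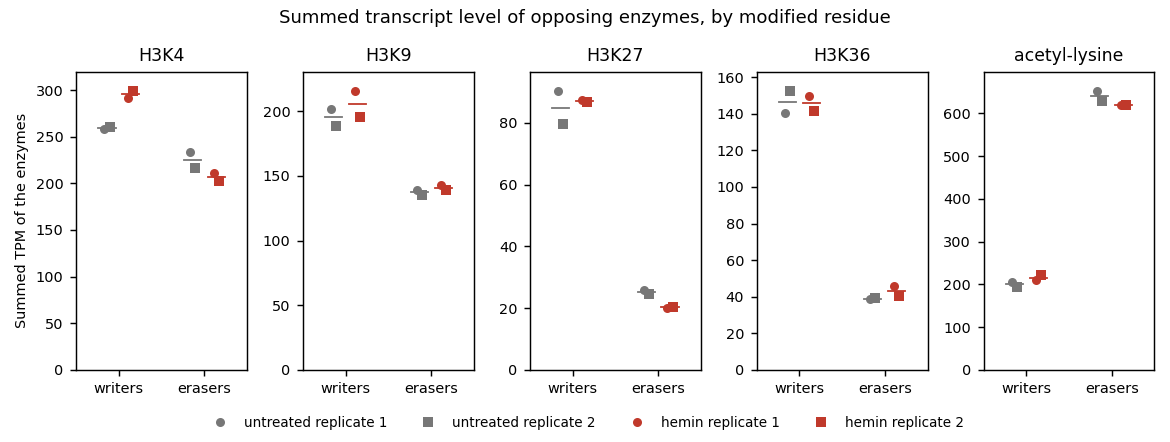
Summed TPM of the writers and of the erasers of 5 modifications in each of the 4 libraries, with a line at the mean of each group, each panel on its own axis from 0. The H3K4 writers lie higher after hemin (292 and 299 TPM against 258 and 261). The H3K27 erasers KDM6A and KDM6B lie lower (20.1 and 20.4 against 25.9 and 24.5), and the H3K9 groups overlap. Each enzyme is counted under a single residue, so KDM7A is not among the H3K27 erasers.

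Most of these enzymes work inside complexes, so 121 tested complex partners and 24 tested further enzymes outside the symbol rule were counted from lists written for this purpose. Of these 145 genes, 16 rose and 3 fell, with a median log2 fold change of 0.084. These are 11.0% and 2.07% of the 145, beside 7.00% and 7.14% of all tested genes, whose median was -0.005. Without untreated replicate 1 there were 8 up and 1 down, and without untreated replicate 2 there were 9 up and 0 down (9 lower at an unadjusted p under 0.05). DESeq2 called 11 up and 0 down. Taken apart, the 121 complex partners had 15 higher and 2 lower (12.4% and 1.65%). The 24 further enzymes had 1 higher and 1 lower (4.17% each), below the shares over all genes, with a median log2 fold change of 0.074. At an unadjusted p under 0.05 by edgeR, 7 of these 24 were higher and 3 lower, and DESeq2 called 1 higher and 0 lower. Partners of DOT1L had 3 of 4 higher although DOT1L itself did not pass, and DESeq2 called 2 of them. The fourth, MLLT6, was lower at an unadjusted p under 0.05 but missed the threshold. It read 167 and 156, then 147 and 143 CPM (log2 fold change -0.16, edgeR adjusted p = 0.0727). The largest rise was in MLLT1, the ENL reader of acetylated and crotonylated lysine, from 69.5 and 70.6 to 94.4 and 99.8 CPM (log2 fold change 0.47, SE 0.059, adjusted p = 0.0013, highest 0.0136 with a library left out). Its paralog MLLT3, known as a regulator of erythroid and megakaryocyte fate, rose from 19.9 and 21.8 to 28.1 and 27.3 CPM (0.41, adjusted p = 0.0243), and JADE2, a scaffold of the HBO1 complex, from 20.7 and 16.8 to 25.9 and 25.7 CPM (0.45, adjusted p = 0.0329). MLLT3 passed in no leave-one-out fit and JADE2 not in all of them (highest adjusted p 0.127 and 0.155). COMPASS partners had 4 of 12 higher (HCFC1, PAXIP1, WDR82 and PSIP1), and NuRD, the remodelling complex that holds HDAC1 and HDAC2, had 4 of 10 higher (CHD3, CHD4, GATAD2A and MBD3), with 0 lower in either list, where 1 COMPASS partner and 0 NuRD partners were lower at an unadjusted p under 0.05. Of these 8, CHD4 alone passed with each library left out (highest adjusted p 0.0293), the others reaching 0.0572 in CHD3 to 0.224 in PAXIP1, and DESeq2 called 2 COMPASS and 3 NuRD partners. The falls were in PHF21A of the CoREST complex, from 81.8 and 88.5 to 68.1 and 72.4 CPM (-0.28, adjusted p = 0.0239), in SMYD3, a methyltransferase outside the symbol rule, from 69.0 and 74.6 to 62.7 and 57.5 CPM (-0.26, adjusted p = 0.0425), and in MORF4L2 of the NuA4 complex, from 397 and 401 to 352 and 361 CPM (-0.16, adjusted p = 0.0263). None of the 3 kept its call in all leave-one-out fits, with highest adjusted p-values of 0.131, 0.201 and 0.114.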

How the data were processed

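Libraries of K562 poly(A) RNA were read in 50-base reads. The authors trimmed the reads and quantified them against Ensembl 106, and the submitters' processing notes name Trimmomatic 0.39, STAR 2.7.5c and RSEM 1.3.1. The deposited expected counts are RSEM's estimated counts per gene, not normalized, and reads that fit several genes are divided between them. The deposited posterior SD of the count is a signal of that division. The authors' TPM values are scaled by effective length and depth. The methods give no strand setting for RSEM, so antisense and overlapping genes may share reads. The deposited FPKM tables were not used here.

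Rounded expected counts that passed filterByExpr were given TMM factors, and the quasi-likelihood test of edgeR 4.0.16 was run in R 4.3.3 on condition alone. P-values were adjusted by Benjamini-Hochberg over all 14458 tested genes, and 0.05 was the threshold. The common dispersion was 0.001179. CPM are TMM-scaled. Standard errors are of the log2 fold change. The study itself tested another count of the reads with DESeq2. The test was checked on simulated counts, where it called 100 of 100 genes changed 2-fold and 56 of 100 changed 1.25-fold. A member that did not pass may thus still have changed by a small factor. The 2 libraries of a group differed by more than counting noise, the chi-square per gene averaging 1.80 (untreated) and 2.16 (hemin). The floors (3 counts) cover counting error only, while the standard errors also hold the spread between libraries that edgeR estimated.

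The members, the enzyme roles and the partner lists were chosen with earlier results of these data known. Any member could be named. Full values went to those past the threshold and to the extremes of each class, and of the partner lists to the 3 largest called changes in each direction. The fit was repeated with DESeq2 1.42.0, with RLE factors or library size alone, without the count filter or with at least 20 counts, with a replicate block, with posterior mean counts, after a loess correction for length (span 0.4), and with each library left out, where a library alone in its group was assumed to vary like the others. TPM values were tested with limma 3.58.1 after adding 1 or 0.1 and taking log2. Gene coordinates are from GENCODE 44 (GRCh38), in which all 83 members were matched by gene ID.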

Additional observations from a re-analysis of the deposited data

How the results depend on the processing

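Among the 23 called members, 22 kept their sign in all 14 alternatives, NSD1 being the exception. RLE factors, the length correction, posterior mean counts, no count filter and the stricter filter kept all 23 calls, library size only kept 17, DESeq2 11 and limma on TPM 0, and fits without untreated replicate 1 or 2 or hemin replicate 1 or 2 kept 12, 8, 16 and 15. The replicate numbers did not pair the libraries (correlation of deviations -0.03 over 8993 genes). With the replicate number as a block 20 of the 23 calls were kept, without KAT7 (adjusted p = 0.0511), KDM3B (0.0523) and PRMT6 (0.0575), which left 12 writers higher and 0 erasers higher, and the block changed no other call. With 2 libraries in each group, 7455447 to 8241534 counts per library limit small changes in weakly read genes such as HDAC11.

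Over all genes, 1012 rose and 1033 fell. DESeq2 gave 589 and 479, limma on log2(TPM + 1) 14 and 33, limma on log2(TPM + 0.1) 15 and 34, leave-one-out fits 469 to 934 and 512 to 884, and library size only 729 and 1358. The 14 rising writers became 9 with library size only (5 fell), 6 with DESeq2, 0 with both limma settings and 3 to 11 in leave-one-out fits. The 4 falling writers became 1 with DESeq2, 0 with both limma settings and 2 in each leave-one-out fit. The 1 rising eraser became 0 with library size only, DESeq2, both limma settings and each leave-one-out fit. The 4 falling erasers became 0 with both limma settings, with 4 and 5 lower at an unadjusted p under 0.05, and stayed 4 in leave-one-out fits. Of partners and further enzymes, the 16 rising became 0 with both limma settings (14 at an unadjusted p under 0.05) and 8 to 16 in leave-one-out fits, and the 3 falling became 5 with library size only, 0 with DESeq2 and both limma settings (6 at an unadjusted p under 0.05 by limma) and 0 to 4 in leave-one-out fits.

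The median log2 fold change of writers (0.11) was 0.074 with library size only, 0.093 with limma on log2(TPM + 1) and 0.16 in the histone subset. That of erasers (-0.02) was -0.059 with library size only, 0.0016 with no count filter, -0.058 and -0.059 with limma, and -0.018 to 0.0092 in leave-one-out fits. The writer-minus-eraser difference (0.16) was 0.13 with no count filter. On log2(TPM + 1) and log2(TPM + 0.1) the direction turned in HDAC8 (-0.12 and -0.13), KAT2A (0.026 and 0.026), KDM1A (-0.030 and -0.030), NSD1 (-0.0085 and -0.0089) and SIRT1 (-0.095 and -0.10), of which NSD1 alone had been called. In leave-one-out fits it turned in KMT2C (-0.11 to 0.049), PRMT9 (-0.088 to 0.053) and SIRT5 (-0.17 to 0.024), none of them called. Full sensitivity values were drawn up for 40 of the 79 tested members, which these lists cover. Over all 79, the sign turned in 19 on the TPM scales (7 writers and 12 erasers, 1 of them called) and in 22 in at least 1 leave-one-out fit (0 called). The cause of these shifts was not tested.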

Other observations

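PRDM9, a methyltransferase of H3K4 and H3K36 that is known as a gene of meiotic germ cells, was among the further enzymes outside the symbol rule and was singled out after its values were seen. It read 299 and 300 TPM in untreated and 273 and 269 TPM in hemin-treated libraries, and 0 of the 83 members had a higher mean TPM. Its counts lay at 514 and 520 CPM before and 482 and 472 CPM after hemin (log2 fold change -0.12, SE 0.039, edgeR adjusted p = 0.0773), with a posterior SD of 0.023% of the count. That SD covers only the division of reads between genes and isoforms, and how the reads lie along PRDM9 was not analysed here. SETMAR, a SET-domain protein fused to a transposase and likewise singled out afterwards, read 6.20 and 5.88, then 9.57 and 9.17 CPM (0.63, SE 0.186, edgeR adjusted p = 0.0516), and missed the threshold. In the CoREST list, which holds the partners of KDM1A, 7 of 8 tested genes had a negative log2 fold change. Their median was -0.13, where 49.1% of all tested genes had a positive value. That median was the lowest of the partner lists, so this list is an extreme of those looked at. In CPM, 5 of the 8 were apart on the low side. The direction turned in leave-one-out fits for GFI1B (-0.22 to 0.094) and RCOR3 (-0.11 to 0.033). Of the 8, 1 was called lower by edgeR (12.5%, beside 7.14% of all tested genes) and 0 by DESeq2, with 2 lower at an unadjusted p under 0.05 by edgeR.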
